A study of Mus musculus with 19 samples.

Results

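Peyer's patches are lymphoid organs in the wall of the small intestine, and their endothelium was compared between high endothelial cells (HEC) and capillary cells. The members are 6 of the 19 arrays of the series: HEC arrays 1 to 3 and capillary arrays 1 to 3, chosen by their sample titles. Both groups came from Balb/c mice aged 6 to 8 weeks, males and females in equal parts, and no genotype or agent is named for either. Of 28856 probe sets on the Affymetrix whole-transcript array, 21789 carried 1 gene symbol, and these gave 19938 genes. The other 13 arrays hold the same cell types from peripheral and mesenteric lymph nodes and entered the fit and the last comparison only. The labels do not say whether the 3 arrays of a group came from separate mice or pools. The p-values measure the spread between arrays within groups, pooled over all 7 groups of the fit, and that spread may be technical. The labels do not name the antibodies of the Peyer's patch sorts either, so whether Madcam1 protein was part of the HEC gate is not known here.

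High endothelial venules are the vessels through which lymphocytes leave the blood and enter lymphoid organs. Their plump cells display sulphated, fucosylated and sialylated sugars that L-selectin on lymphocytes binds, chemokines that activate lymphocyte integrins, and integrin ligands. In Peyer's patches the main integrin ligand is the mucosal addressin MAdCAM-1, which also carries L-selectin ligands and binds the gut-homing integrin alpha4beta7. Capillary endothelium exchanges gases, water and nutrients with tissue, and is supplied through arterioles.

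All values are log2 signals that were centred for each probe set on a baseline the sources used here do not give. A difference of 1 is 2-fold, the sign of a difference is HEC minus capillary, and the height of one gene cannot be compared with that of another. A gene was called when its adjusted p was under 0.05 in limma's moderated test, fitted over all 19 arrays and adjusted by Benjamini-Hochberg over all 19938 genes. Each difference is given with the standard error (SE) of that fit, and n = 3 arrays in each Peyer's patch group. The arrays are bulk samples, so fewer cells of a type and less RNA per cell cannot be told apart.

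Several arrays stood apart. Peyer's patch HEC arrays 2 and 3 differed from each other with an SD of 0.45 over genes, against 0.196 to 0.312 for the other pairs of arrays within a group. They lay at least 2-fold apart in 531 genes; array 1 lay between them in 507 of these and array 3 was the higher in 474. Of the 531 genes 95 were called. In the peripheral nodes, capillary arrays had Glycam1 values of 4.42, 4.11 and 1.70 beside 4.60 to 5.07 in HEC, so the first 2 lay near the HEC range. The counts and the named genes against that tissue were also computed with its capillary array 3, at 1.70, alone. The limma fit pools the spread of each gene over all groups, so every SE also rests on arrays of other groups. A group of 1 array adds nothing to that spread. The same holds wherever HEC array 1 stands alone.

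The HEC markers chosen for the label were Madcam1, Glycam1, Chst4, Fut7, Gcnt1 and Ackr1, and all 6 were higher in HEC in every array. The capillary markers Cd36, Car4, Gpihbp1, Aqp7 and Rgcc were all lower, with list means of -0.35, -0.01 and -0.29 in HEC arrays and 3.84, 3.80 and 3.78 in capillary arrays. Pan-endothelial genes were less even. Pecam1, an adhesion molecule of all endothelium, read 0.16, -0.03 and 0.30 in HEC and 0.15, 0.25 and 0.15 in capillary arrays, and its difference of -0.04 (SE 0.10) was not called (limma adjusted p = 0.859). Of 14 endothelial markers 9 were lower in HEC and 0 higher in limma, as at an unadjusted p under 0.05, and Emcn, Kdr and Tek were among the 9. The HEC and capillary markers ran the way the labels say. They were chosen with earlier results of these data known, so they are no independent check of the labels. Detection above background cannot be judged on centred values.

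In all, 3881 of 19938 genes (19.5%) were called: 1774 (8.90%) were higher in HEC and 2107 (10.6%) lower. The median difference over all genes was 0.033. At least 2-fold, 463 genes were higher (2.32%) and 605 lower (3.03%), and at least 8-fold 39 were higher and 44 lower. The 3 HEC arrays lay wholly above or wholly below the 3 capillary arrays in 5376 genes (27.0%), and in 3713 of the 3881 called genes. With HEC array 1 alone, which leaves out the 2 arrays that disagree, 1064 genes were higher and 1525 lower.

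**Figure D1:**
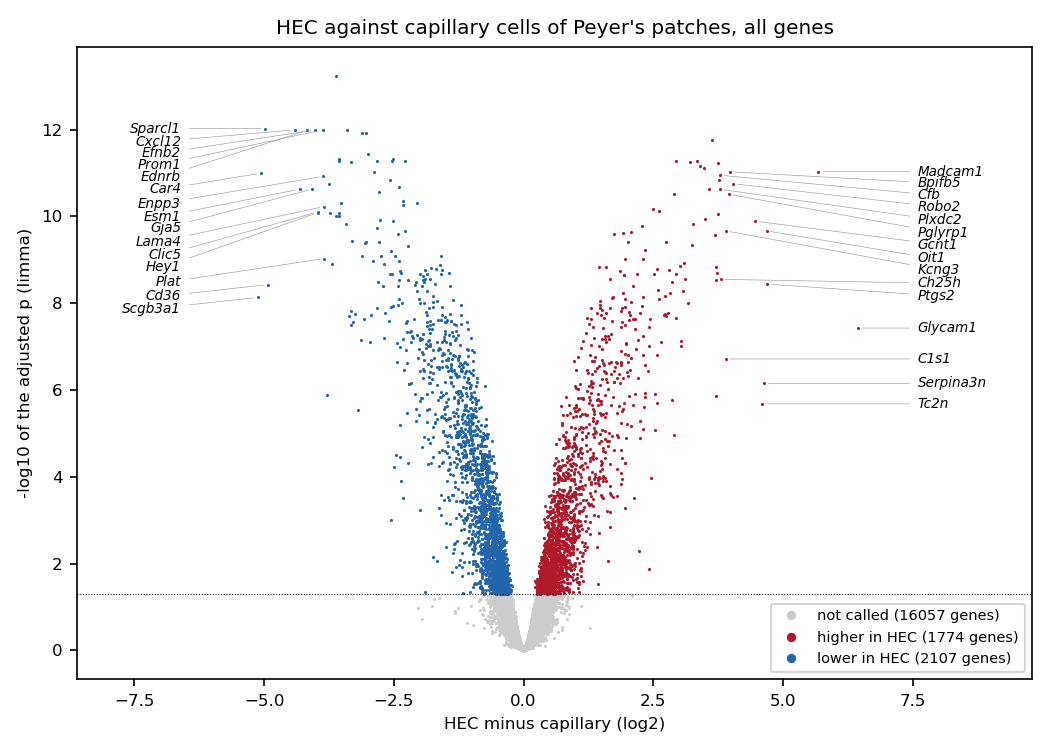
Difference between HEC and capillary cells of Peyer's patches (x axis, log2) against the adjusted p of limma's test (y axis, -log10) for 19938 genes; each point is a gene and the dotted line marks an adjusted p of 0.05. The genes with the largest differences are named: Glycam1 at 6.45 is the farthest to the right and Scgb3a1 at -5.11 the farthest to the left.

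Lymphocyte capture genes held the 2 highest differences of the table. Glycam1, a secreted mucin-like protein known to bear ligands of L-selectin, read 5.18, 5.08 and 4.78 in HEC and -0.66, -2.26 and -1.38 in capillary arrays. It was 87.2-fold higher in HEC (6.45, SE 0.50, limma adjusted p = 3.73e-08). Madcam1 read 5.75, 5.60 and 5.74 in HEC and 0.00, -0.42 and 0.46 in capillary arrays, a difference of 51.4-fold (5.68, SE 0.23, limma adjusted p = 9.3e-12). The 3 HEC values of each gene lay far above all capillary values. Sele, the inducible E-selectin, read 2.17, 2.11 and 2.64 against 0.35, -0.24 and 0.92 and was higher by 1.96 (SE 0.28). Parm1, a mucin-like membrane protein, was higher by 1.96 (SE 0.14).

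Not all sialomucins followed. Of 11 measured mucin-like carriers 4 were higher, 3 were lower and 4 were not called, with a list median of 0.03 beside 0.033 over all genes. Podxl, the sialomucin podocalyxin, was lower in HEC (-3.05, SE 0.10), with arrays at -0.08, -0.17 and 0.00 against 2.96, 3.05 and 2.88. Emcn, the sialomucin endomucin, was lower (-1.38, SE 0.11). Cd34, another carrier of L-selectin ligands, did not pass the test: 0.19, 0.00 and 0.31 in HEC overlapped with 0.38, 0.01 and -0.06 in capillary arrays (difference 0.06, SE 0.14).

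The sugar enzymes that build the L-selectin ligand were more often higher than lower. Of 26 measured genes 12 were higher and 3 lower, with a list median of 0.39. Gcnt1, which starts the core 2 branch of O-glycans, read 3.09, 3.06 and 3.36 against -1.07, -1.32 and -1.48, a difference of 4.46 (SE 0.22, limma adjusted p = 1.28e-10). Fut7, the fucosyltransferase of sialyl Lewis X, read 2.76, 2.98 and 2.60 against -0.15, -0.54 and 0.00 and was higher by 3.01 (SE 0.18). Chst4, the sulfotransferase of high endothelial cells, was higher by a smaller amount: 1.98, 2.11 and 1.69 against -0.10, -0.37 and -0.17, which is 2.14 (SE 0.36, limma adjusted p = 0.000301). The other sulfotransferases Chst1 and Chst2 were higher by 1.88 (SE 0.14) and 1.53 (SE 0.14), and B3gnt3, which extends the core 1 branch, by 1.12 (SE 0.13). Within the list the fold thus ran from Gcnt1 down through Fut7, Chst4, Chst1 and Chst2 to B3gnt3, and in each of these 6 genes the groups did not overlap.

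Genes of sialic acid synthesis and transfer split. Of 17 measured, 5 were higher and 3 lower, with a list median of 0.14. Cmah, which turns N-acetyl- into N-glycolylneuraminic acid, read 1.28, 1.36 and 1.67 against -0.99, -1.65 and -1.86, a difference of 2.94 (SE 0.22). Gne, the first enzyme of sialic acid synthesis, was higher by 1.43 (SE 0.15) and Nans, a later enzyme of that route, by 0.92 (SE 0.13). St6gal1, which makes the alpha2-6 sialylated glycans that the B cell lectin CD22 binds, read 0.84, 0.56 and 1.26 against 0.00, -0.10 and -0.12 and was higher by 0.96 (SE 0.14, limma adjusted p = 4.71e-05). The transferases St8sia6 and St6galnac4 were lower (-1.92, SE 0.17, and -1.05, SE 0.10).

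**Figure D2:**
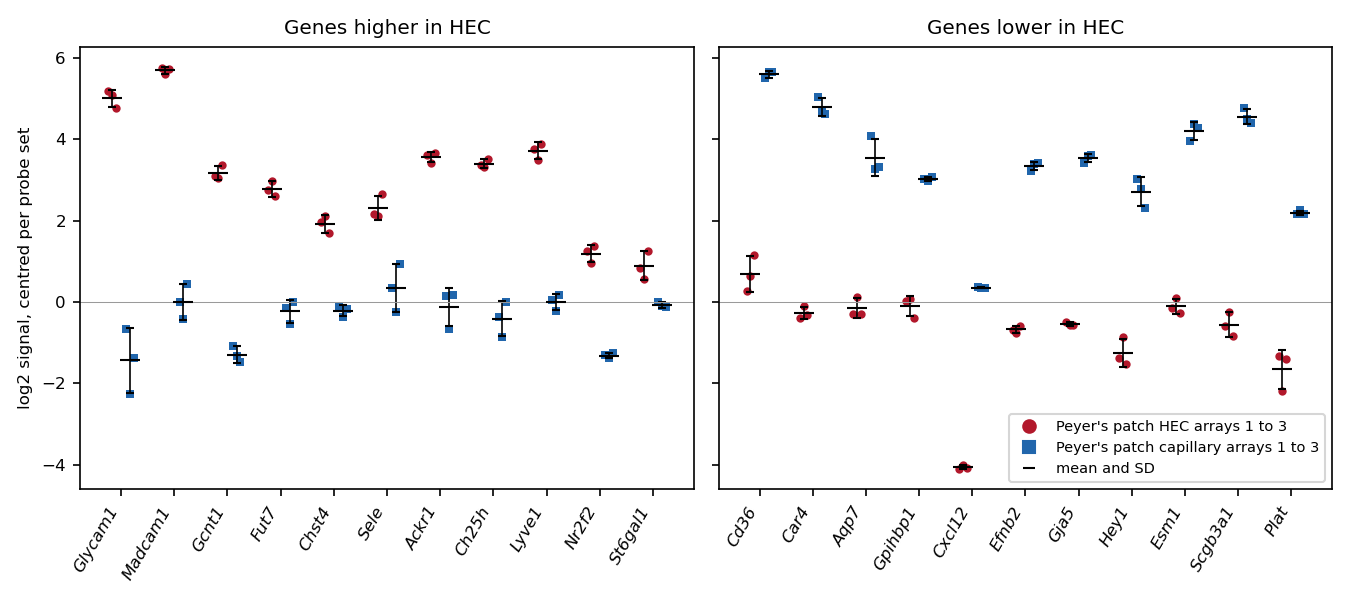
Centred log2 signal (y axis) of 11 genes higher in HEC (left) and 11 lower (right) in each Peyer's patch array; circles are HEC arrays, squares capillary arrays, and bars the mean and SD of 3 arrays. In each gene shown the 3 HEC values lie wholly on one side of the 3 capillary values, as for Madcam1 (5.60 to 5.75 against -0.42 to 0.46) and Cxcl12 (-4.09 to -4.00 against 0.34 to 0.37).

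Among integrin ligands Icam1, a ligand of LFA-1, was higher by 0.83 (SE 0.19, limma adjusted p = 0.00479). It was not called with HEC array 1 alone (0.86, limma adjusted p = 0.0691). Icam2, its constitutive relative, was lower (-0.93, SE 0.17). Vcam1, a ligand of alpha4 integrins, read 0.16, 0.21 and 0.26 against 0.00, -0.80 and -0.31. These arrays did not overlap, yet the difference of 0.58 (SE 0.23) was not called (limma adjusted p = 0.0952). Nectin2, a cell adhesion molecule of junctions, was higher by 1.30 (SE 0.10), and Thbd, the anticoagulant receptor thrombomodulin that stands in the same list, was lower (-3.04, SE 0.16). In all, 6 of 17 selectins and integrin ligands were higher and 3 lower.

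Of 23 measured chemokines 5 were higher, 2 lower and 16 not called, with a list median of 0.10; over all genes 19.5% were called. Cxcl9, Cxcl10 and Cxcl11 share the receptor CXCR3. Cxcl9 read 0.49, 0.31 and 0.77 against -2.0, -2.15 and -2.05 and was higher by 2.59 (SE 0.17, limma adjusted p = 4.89e-09). Cxcl11 was higher by 2.24 (SE 0.26) and Cxcl10 by 2.04 (SE 0.15). Cxcl1, a neutrophil chemokine, was higher by 0.71 (SE 0.19). Ccl20, the CCR6 ligand, was higher by 1.63 (SE 0.41), but its value in HEC array 3 was 2.75 beside 1.05 and 1.11 in the others. Its difference was 1.05 and not called with HEC array 1 alone (limma adjusted p = 0.186), where 3 chemokines were higher. Cxcl13, the B cell chemokine, was not called (-0.24, SE 0.27, limma adjusted p = 0.635).

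Cxcl12, the CXCR4 ligand, was among the lowest genes of all. It read -4.09, -4.00 and -4.09 in HEC and 0.37, 0.34 and 0.34 in capillary arrays, a difference of -4.41 (SE 0.14, limma adjusted p = 1.01e-12). Its receptor Cxcr4 was lower (-3.07, SE 0.23), as was Ackr3, the atypical receptor that takes up CXCL12 (-2.55, SE 0.14). Cx3cl1, the membrane-bound chemokine fractalkine, was lower (-2.17, SE 0.17). The atypical receptors that bind inflammatory chemokines went the other way: Ackr1 read 3.61, 3.43 and 3.67 against 0.15, -0.66 and 0.16, a rise by 3.69 (SE 0.19), and Ackr2 was higher by 3.12 (SE 0.20). Gpr182, a scavenging chemokine receptor of endothelium, was higher by 3.34 (SE 0.12). Of 11 chemokine receptors 3 were higher and 3 lower. The third lower receptor, beside Cxcr4 and Ackr3, was Ccrl2. It was not called without HEC array 2 (-0.42, limma adjusted p = 0.0724) or capillary array 1 (-0.45, limma adjusted p = 0.073), where the lower count was 2. With HEC array 1 alone its difference was -0.47.

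Lipid mediators that guide or activate lymphocytes were also uneven. Ch25h, which makes 25-hydroxycholesterol, the precursor of the EBI2 ligand, read 3.36, 3.32 and 3.52 against -0.37, -0.86 and 0.01 and was higher by 3.81 (SE 0.24, limma adjusted p = 2.81e-09). Hsd3b7, which degrades that ligand, was higher by 1.48 (SE 0.18). Cyp7b1, the enzyme between these steps, was not called (-0.52, SE 0.18, limma adjusted p = 0.0534). The phosphatases of lysophospholipids split, with Plpp2 higher by 1.88 (SE 0.17) and Plpp1 and Plpp3 lower (-2.70, SE 0.22, and -1.40, SE 0.13). Over the 18 measured genes of the list, 4 were higher and 4 lower.

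The lymphotoxin receptor and NF-kB genes were called on both sides. Of 21 measured, 5 were higher and 5 lower, with a list median of -0.08. The counts were 2 and 2 with HEC array 1 alone, and the lower count was 3 when HEC array 1 or 2 or capillary array 1 or 3 was left out. Tnfrsf11a, the receptor RANK, was higher by 1.09 (SE 0.12), and Ltbr itself, the lymphotoxin beta receptor, was lower (-0.48, SE 0.09, limma adjusted p = 0.000522). Nkx2-3, the homeobox factor of mucosal and splenic endothelium, read 1.73, 1.93 and 1.83 against 2.50, 2.08 and 2.22, and its difference of -0.44 (SE 0.18) was not called (limma adjusted p = 0.114). The promoter of Madcam1, a gene that NF-kB is known to act on, is shown because it holds that factor's motif. The motif, GGG followed by any 3 bases and TTCC, was searched on both strands in the 250 bases before the start of each gene, using RefSeq promoters of GRCm38.p6. It stood in 846 of 15614 measured genes with a promoter (5.42%) and in 5 of 18 such genes of this list. Madcam1 held 2 matches, which begin 83 and 70 bases before the start and are printed in capitals as they read on the gene's strand (chr10:79664309-79664558, plus strand).
Madcam1: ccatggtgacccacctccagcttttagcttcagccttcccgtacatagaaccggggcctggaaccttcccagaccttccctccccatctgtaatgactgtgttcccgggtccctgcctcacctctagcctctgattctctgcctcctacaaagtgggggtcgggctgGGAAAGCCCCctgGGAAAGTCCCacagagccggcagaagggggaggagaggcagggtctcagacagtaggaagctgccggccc

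Complement and protease inhibitor genes were more often higher than lower in HEC. Of 18 measured complement genes 7 were higher and 3 lower (median 0.18). Of 21 serpins and inter-alpha-trypsin inhibitor (ITIH) genes 11 were higher and 5 lower (median 0.40). Itih5, among these 5, changed sign under quantile normalization, as given in the last section. C1s1, a protease of the first complement component, read 2.42, 1.78 and 3.35 against -1.01, -1.65 and -1.49 and was higher by 3.90 (SE 0.35). Its HEC arrays differed among themselves, yet all lay above the capillary arrays. Cfb, factor B of the alternative pathway, was higher by 3.79 (SE 0.15), and Cd55, which speeds the decay of convertases, by 2.94 (SE 0.18). Serping1, the inhibitor of C1, was lower (-1.50, SE 0.30).

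Serpina3n, an acute-phase serine protease inhibitor, read 4.13, 3.94 and 4.15 in HEC and 0.01, -0.69 and -1.01 in capillary arrays. Its difference was 4.64 (SE 0.46, limma adjusted p = 7.05e-07). Serpina1c, an alpha-1-antitrypsin gene with near-identical copies that probes may not separate, was higher by 3.71 (SE 0.23). Itih3 read 3.30, 3.36 and 3.48 against -0.32, -0.20 and -0.24, a rise by 3.63 (SE 0.12). Other secreted defence proteins among the 15 highest genes were Pglyrp1, which binds peptidoglycan, at 3.95 (SE 0.17) and Bpifb5, of the family of bactericidal and permeability-increasing proteins, at 3.97 (SE 0.16). Oit1, at 4.68 (SE 0.24), Tc2n, at 4.59 (SE 0.50), and Kcng3, a potassium channel subunit, at 3.90 (SE 0.20), were also among the 15 highest.

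Arterial genes were lower in HEC almost without exception. Of 22 measured, 21 were lower and 0 higher in limma (also 21 and 0 at an unadjusted p under 0.05), the list median was -2.36, and in each of the 21 the groups did not overlap. Without any 1 array the count stayed at 21, and with HEC array 1 alone it was 20. Efnb2, the arterial ephrin, read -0.68, -0.76 and -0.58 in HEC and 3.23, 3.39 and 3.41 in capillary arrays, a difference of -4.01 (SE 0.13, limma adjusted p = 1.01e-12). Gja5, a connexin of arterial gap junctions, read -0.49, -0.56 and -0.57 against 3.42, 3.60 and 3.61 and was lower (-4.08, SE 0.18). Gja4, Sema3g and Igfbp3 were lower as well (-3.56, SE 0.17, -3.75, SE 0.16, and -3.51, SE 0.16). The member not called was Tm4sf1 (-0.19), named because it was the exception.

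The Notch pathway, which acts in arterial fate, lay lower too. Of 19 measured genes 10 were lower, 1 was higher and the median was -0.67; leaving out HEC array 1 gave 0 higher and leaving out HEC array 2 gave 2. The 10 held at least one of each tier: Jag2 among ligands (-2.79, SE 0.12), Notch4 (-2.76, SE 0.14) and Notch1 (-1.27, SE 0.13) among receptors, and Hey1, Hey2 and Hes1 among targets. Hey1 read -1.38, -0.86 and -1.52 against 3.03, 2.79 and 2.32, a difference of -3.97 (SE 0.19). Hey2 was lower (-2.44, SE 0.20), as was Hes1 (-1.41, SE 0.16). Hey1 stands in both the arterial and the Notch list. The binding motif of RBPJ, the factor through which Notch acts, was searched as GTGGGAA on both strands. It was found before 962 of 15614 genes (6.16%), before 2 of 15 Notch list genes and before 1 of 8 that were lower. That gene was Hey2, shown here with the match in capitals 207 bases before its start (chr10:30842784-30843033, minus strand).
Hey2: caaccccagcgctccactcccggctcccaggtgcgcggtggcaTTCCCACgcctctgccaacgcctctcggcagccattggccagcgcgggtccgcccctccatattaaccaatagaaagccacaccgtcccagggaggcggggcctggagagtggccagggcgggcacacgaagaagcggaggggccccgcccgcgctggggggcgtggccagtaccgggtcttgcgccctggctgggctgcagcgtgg

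Genes of veins were more often higher. Of 13 measured, 6 were higher and 3 lower (median 0.58). Nr2f2, the COUP-TFII factor of venous fate, read 1.25, 0.95 and 1.38 against -1.31, -1.38 and -1.26 and was higher by 2.51 (SE 0.15, limma adjusted p = 2.07e-09). Lrg1, a secreted glycoprotein of post-capillary venules, read 3.62, 3.71 and 3.66 against -0.37, 0.09 and 0.00, a rise by 3.76 (SE 0.14). Vwf, the platelet-binding factor of larger vessels, was higher by 0.89 (SE 0.24, limma adjusted p = 0.0128). Its call was lost without capillary array 1, where the difference was 0.77 (limma adjusted p = 0.056), and with HEC array 1 alone (0.98, limma adjusted p = 0.0969). Aplnr, the apelin receptor of veins, did not pass the test: 2.17, 1.75 and 2.27 in HEC and 1.94, 2.02 and 2.12 in capillary arrays (0.04, SE 0.15, limma adjusted p = 0.908).

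**Figure D3:**
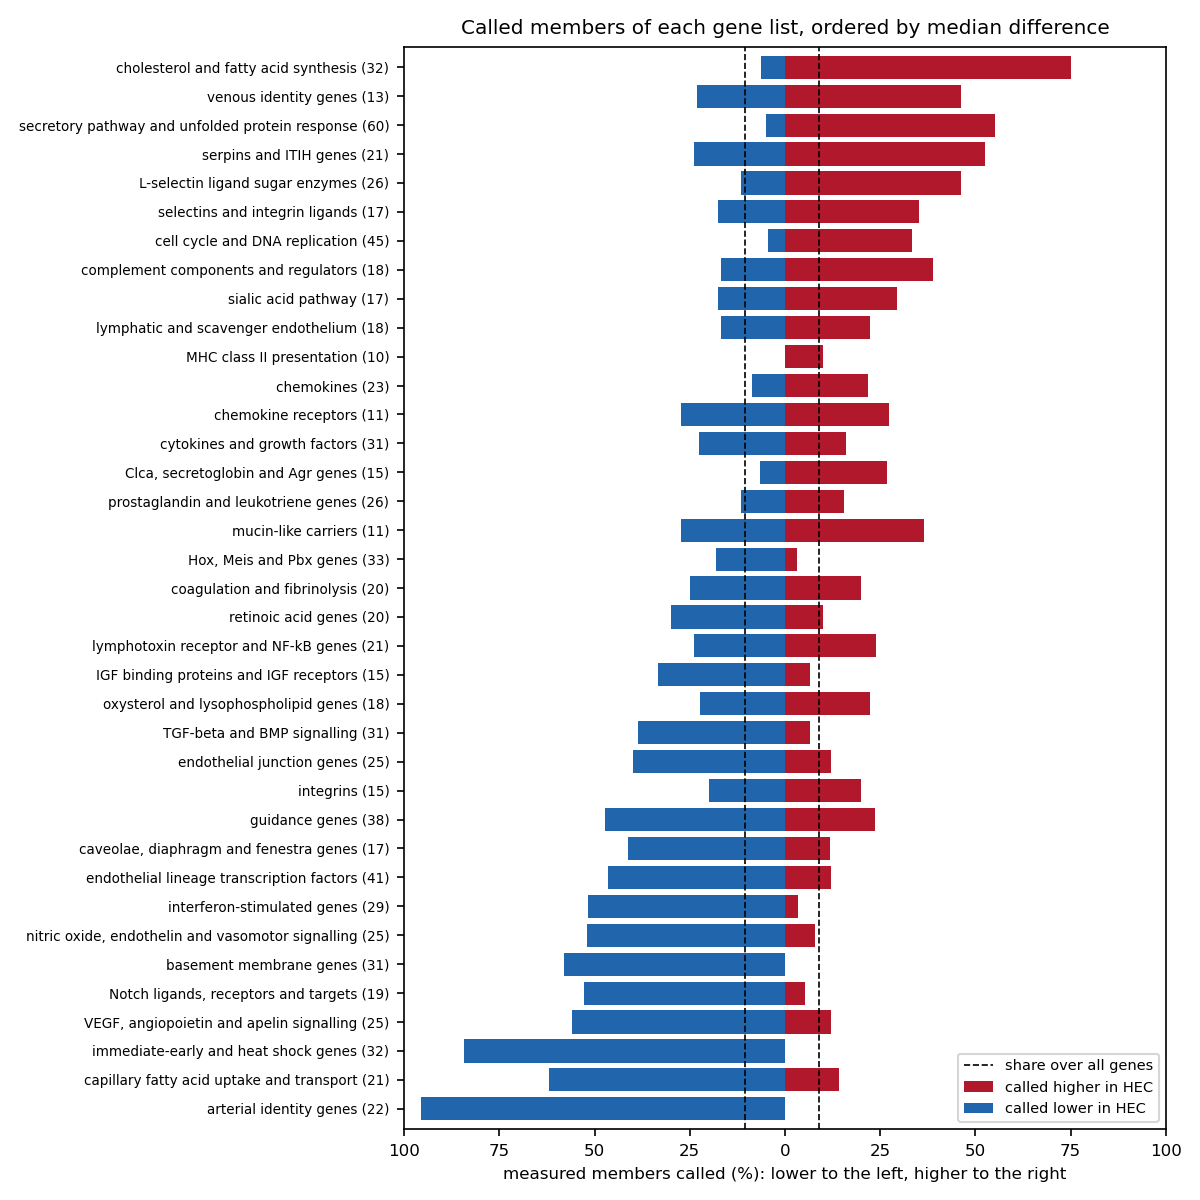
Share of the measured members of each gene list (rows, number measured in parentheses) that was called lower (bars to the left) or higher (bars to the right) in HEC, in percent; dashed lines mark the shares over all genes, 10.6% and 8.90%. The arterial list has 21 of 22 members to the left and the cholesterol and fatty acid list 24 of 32 to the right.

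Of 41 endothelial transcription factors 19 were lower and 5 higher (median -0.44). Prdm1, a transcriptional repressor, read -0.12, -0.53 and -0.03 against 3.07, 2.95 and 3.03, a difference of -3.24 (SE 0.24). Sox17 and Prdm16, both factors of arterial endothelium, were lower (-2.05, SE 0.09, and -1.89, SE 0.12), as was Gata2 (-1.82, SE 0.18). Tcf15, which with Meox2 drives fatty acid transport in heart endothelium, was lower (-1.86, SE 0.14). In the list of Hox, Meis and Pbx genes 6 of 33 were lower and 1 higher, with Hoxd8 at -1.02 (SE 0.18). The higher count was 2 without HEC array 2 or 3, and with HEC array 1 alone 4 were lower and 0 higher.

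Capillary genes of fatty acid and water handling were mostly lower. Of 21 measured, 13 were lower and 3 higher (median -1.28). Cd36, the fatty acid translocase, read 0.27, 0.63 and 1.16 in HEC and 5.50, 5.66 and 5.65 in capillary arrays, a difference of -4.92 (SE 0.32). Car4, the luminal carbonic anhydrase of capillaries, read -0.40, -0.11 and -0.32 against 5.04, 4.71 and 4.63 and was lower (-5.07, SE 0.20, limma adjusted p = 1.01e-11). Gpihbp1, which holds lipoprotein lipase on the capillary wall, was lower (-3.12, SE 0.18), as were the glycerol channel gene Aqp7 (-3.70, SE 0.22) and Fabp4, a fatty acid carrier (-2.60, SE 0.20). The HEC and capillary values of these 5 genes did not overlap.

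Growth factor signals of sprouting and tip cells were lower. Of 25 VEGF, angiopoietin and apelin genes 14 were lower and 3 higher (median -0.75). Esm1, the tip cell proteoglycan endocan, read -0.16, 0.10 and -0.26 against 3.97, 4.38 and 4.27, a difference of -4.31 (SE 0.19). Nrp1, a co-receptor of VEGF, was lower (-2.83, SE 0.11), as were Flt1 and Kdr, the VEGF receptors 1 and 2 (-1.59, SE 0.12, and -1.07, SE 0.13), and Pdgfb, which recruits pericytes (-1.67, SE 0.12). Angptl4, an inhibitor of lipoprotein lipase, was the largest rise in that list at 1.96 (SE 0.35), with 0.72, 0.74 and 0.09 in HEC and -1.29, -1.64 and -1.39 in capillary arrays.

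The vessel wall differed in matrix and junctions. In the basement membrane list 18 of 31 genes were lower and 0 higher (median -0.65; limma at an unadjusted p under 0.05: 19 lower and 2 higher), and without HEC array 3 the higher count was 1. Sparcl1, a matricellular protein, read -3.63, -3.56 and -3.58 against 1.38, 1.43 and 1.38, a difference of -4.98 (SE 0.15, limma adjusted p = 9.4e-13). Lama4, the laminin alpha4 chain of vascular basement membranes, was lower (-3.85, SE 0.18), as were Fn1, fibronectin (-3.73, SE 0.18), Lama3 (-3.55, SE 0.13) and Nid2, which links laminin to collagen IV (-3.0, SE 0.11).

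Of 25 junction genes 10 were lower and 3 higher. Cldn5, the tight junction claudin of endothelium, was lower (-2.22, SE 0.32), with a capillary array 1 value of 2.21 beside 1.03 and 0.99. Jup, plakoglobin, was lower (-2.89, SE 0.12), as was Cdh13, T-cadherin (-3.56, SE 0.17). Cdh2, N-cadherin, was higher by 1.96 (SE 0.17), with 0.00, -0.04 and 0.30 against -1.80, -1.83 and -2.01. Cdh5, VE-cadherin, was lower (-0.34, SE 0.08, limma adjusted p = 0.00606), a call lost with HEC array 1 alone (-0.33, limma adjusted p = 0.0703). Among 17 genes of caveolae and diaphragms 7 were lower and 2 higher; Cavin2 was lower (-1.79, SE 0.26) and Ehd3, an endocytic ATPase, higher by 2.91 (SE 0.36). Of 15 integrins 3 were higher and 3 lower, with Itgb5 at -2.02 (SE 0.14) and Itga2 at 1.51 (SE 0.18).

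Genes of the secretory route were higher as a group of small differences. Of 60 measured, 33 were higher and 3 lower (median 0.49); with HEC array 1 alone 17 were higher, and without any 1 array between 22 and 37. The lower count was 5 without HEC array 3. Ern1, the sensor that splices Xbp1 mRNA, read 1.27, 1.25 and 1.36 against 0.04, -0.38 and -0.49, a rise by 1.57 (SE 0.13, limma adjusted p = 6.62e-08). Xbp1, the factor of the unfolded protein response, was higher by 1.06 (SE 0.15). Kdelr3, which returns proteins to the endoplasmic reticulum, was higher by 1.53 (SE 0.24), the cargo receptor Tmed3 by 1.33 (SE 0.14) and the vesicle coat gene Sec23b by 1.06 (SE 0.21). Ddit3, the stress factor CHOP, was lower (-0.97, SE 0.14). List means were 0.19, 0.06 and 0.48 in HEC arrays 1 to 3 and -0.12, -0.25 and -0.25 in capillary arrays, so HEC array 3 was the highest and HEC array 2 the lowest of the HEC arrays here.

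Promoters of this list were searched for CACGTC, the core that XBP1 and ATF6 bind, on both strands. It stood before 1098 of 15614 genes (7.03%) and before 12 of 51 genes of the list (23.5%). Of these 12 genes 7 were higher, beside 26 of the 51. A match is a description of these letters and was not tested as a site. The promoters of 3 higher members are shown because they carry the core close to the start: at 80 and 29 bases before the start in Kdelr3 (chr15:79516158-79516407, plus strand), 25 in Ssr1, a subunit of the translocon-associated complex (chr13:37994209-37994458, minus strand), and 25 in Sec24d, a coat subunit (chr3:123267246-123267495, plus strand). Capitals mark the core on either strand, and sequences are RefSeq's for GRCm38.p6. Ssr1 was higher by 0.75 and Sec24d by 0.83; both were named for their promoters.
Kdelr3: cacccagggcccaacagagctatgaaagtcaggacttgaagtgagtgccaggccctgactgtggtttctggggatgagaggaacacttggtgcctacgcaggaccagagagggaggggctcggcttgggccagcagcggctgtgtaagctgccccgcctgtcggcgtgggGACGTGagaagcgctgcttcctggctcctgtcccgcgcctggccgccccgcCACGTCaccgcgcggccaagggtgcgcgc
Ssr1: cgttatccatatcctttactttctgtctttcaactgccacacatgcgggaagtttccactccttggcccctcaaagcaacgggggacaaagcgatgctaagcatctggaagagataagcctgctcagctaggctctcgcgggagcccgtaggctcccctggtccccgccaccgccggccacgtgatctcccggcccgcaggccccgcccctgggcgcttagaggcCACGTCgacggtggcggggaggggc
Sec24d: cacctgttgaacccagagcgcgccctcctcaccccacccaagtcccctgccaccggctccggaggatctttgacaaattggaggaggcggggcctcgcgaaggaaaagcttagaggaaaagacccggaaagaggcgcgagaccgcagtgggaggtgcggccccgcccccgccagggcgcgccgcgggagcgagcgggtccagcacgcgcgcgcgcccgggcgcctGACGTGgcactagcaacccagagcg

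Lipid synthesis genes were higher in most cases. In the list of sterol and fatty acid synthesis 24 of 32 measured genes were higher and 2 lower (median 0.88), and with HEC array 1 alone 19 were higher and 1 lower. Sqle, squalene epoxidase, read 1.68, 1.49 and 2.15 in HEC and -0.30, -0.75 and -0.55 in capillary arrays, a rise by 2.30 (SE 0.19, limma adjusted p = 5.78e-08). The later sterol enzymes Cyp51 and Msmo1 were higher by 2.00 (SE 0.24) and 1.86 (SE 0.18), and Idi1 by 1.90 (SE 0.29), with both of its probe sets called at 1.88 and 1.92. Elovl6, a fatty acid elongase, was higher by 2.43 (SE 0.20) and Scd1, a desaturase, by 2.33 (SE 0.24). The members that were lower were Elovl5, another elongase, and Srebf1, a regulator of fatty acid synthesis. The sterol response element TCACNCCAC stood before 188 of 15614 genes (1.20%) and before 1 of 25 genes of this list. As in the secretory list, HEC array 3 had the highest list mean at 0.81 and HEC array 2 the lowest HEC mean at 0.41, with capillary arrays at -0.19, -0.39 and -0.35.

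Genes of retinoic acid, the vitamin A product that imprints gut homing on lymphocytes, were called on both sides. Of 20 measured 2 were higher, 6 lower and 12 not called. Stra6, the retinol uptake receptor, read 3.20, 3.02 and 3.21 against 0.00, -0.60 and -0.46, a rise by 3.50 (SE 0.17, limma adjusted p = 1.13e-10). Rdh10, which oxidises retinol, was higher by 1.80 (SE 0.22). Dhrs3, which reduces retinal back to retinol, was lower (-2.58, SE 0.11), and Cyp26b1, which degrades retinoic acid, read 0.35, 0.35 and -0.17 against 2.48, 3.37 and 3.06 and was lower (-2.80, SE 0.18). The receptors Rarg and Rarb were lower (-1.52, SE 0.12, and -1.16, SE 0.11). Rbp7, a retinol carrier described further below, read 0.00 to 0.17 in HEC and 2.28 to 3.11 in capillary arrays.

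Among eicosanoid genes Ptgs2, the inducible cyclooxygenase, stood out at 4.69 (SE 0.30, limma adjusted p = 3.62e-09), with 2.82, 2.53 and 2.45 in HEC and -2.26, -2.42 and -1.61 in capillary arrays. Alox12, a lipoxygenase, was lower (-3.62, SE 0.17), as was Ptger4, a receptor of prostaglandin E2 (-1.55, SE 0.19). In all 4 of 26 were higher and 3 lower, and 2 were higher with HEC array 1 alone. Vasomotor genes were lower: of 25, 13 fell and 2 rose (median -0.48), with 1 rise when HEC array 1 stood alone. Ednrb, the endothelin B receptor, read -0.36, 0.00 and -0.61 against 3.90, 4.01 and 3.64, a difference of -4.18 (SE 0.13), and Edn1, endothelin 1, was lower (-1.85, SE 0.27). Gucy1a1, a subunit of the nitric oxide receptor, was higher by 1.80 (SE 0.16).

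Clic5, an intracellular chloride channel protein, and Enpp3, an ectonucleotidase, stand in no list here and were among the 15 lowest genes at -3.96 (SE 0.19) and -3.86 (SE 0.16).

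Clotting genes changed on both sides. Plat, tissue plasminogen activator, read -1.34, -2.20 and -1.40 against 2.16, 2.25 and 2.16 and was lower (-3.84, SE 0.22). F8, clotting factor VIII, was higher by 1.73 (SE 0.29), and Tfpi, the inhibitor of the tissue factor pathway, by 1.80 (SE 0.27). Of 20 genes 4 were higher and 5 lower; without HEC array 1, capillary array 1 or capillary array 2 the lower count was 3, and with HEC array 1 alone 2.

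Guidance genes of axons and vessels were split with large values on both sides: 9 of 38 were higher and 18 lower (median -0.21). Robo2, a Slit receptor, read 3.10, 2.83 and 3.45 against -0.85, -1.10 and -0.82, a rise by 4.05 (SE 0.17). Plxdc2, a membrane protein with a plexin domain, was higher by 3.78 (SE 0.16) and Fjx1, the homologue of the fly gene four-jointed, by 3.77 (SE 0.16). Unc5b, a netrin receptor of vessels, was lower (-3.40, SE 0.11).

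TGF-beta and BMP genes were more often lower: 12 of 31 fell and 2 rose (median -0.16), and without HEC array 2 the count that rose was 6. Ltbp4, which stores latent TGF-beta in matrix, was lower (-2.52, SE 0.12), as were Tgfb2 (-2.40, SE 0.14) and the BMP targets Id3 and Id1 (-2.17, SE 0.18, and -1.81, SE 0.17). Of 15 insulin-like growth factor genes 5 were lower and 1, the insulin receptor gene Insr, was higher by 1.09 (SE 0.16). Igf2 and Igfbp4 were lower (-1.83, SE 0.15, and -1.57, SE 0.14). Among 31 cytokine and growth factor genes 5 were higher and 7 lower, and 3 were higher with HEC array 1 alone. Il6, the inflammatory cytokine, read -1.07, -2.44 and -0.75 against 2.46, 2.14 and 2.53, a difference of -3.80 (SE 0.39), and Csf3, the granulocyte growth factor, was higher by 1.79 (SE 0.30).

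Immediate-early and heat shock genes, which respond within minutes to stimuli and stress, were lower in HEC in 27 of 32 cases and higher in 0 (median -1.02; limma at an unadjusted p under 0.05: 28 lower and 0 higher). Ier2 read -1.30, -1.79 and -1.08 against 0.46, 1.35 and 1.11, a difference of -2.36 (SE 0.37). The nuclear receptors Nr4a3 and Nr4a1 were lower (-2.17, SE 0.21, and -1.87, SE 0.12), as was Hspa1a, a heat shock gene with a near-identical copy (-1.63, SE 0.24). List means were -0.46, -0.56 and -0.27 in HEC arrays and 0.52, 0.66 and 0.57 in capillary arrays. These genes moved with the cell type, as did Il6 and Cxcl12, and their part in other results was not tested. The element TGACGTCA stood before 364 of 15614 genes (2.33%) and before 2 of 25 of this list.

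Interferon-stimulated genes were lower in 15 of 29 cases and higher in 1 (median -0.45; 0 higher without HEC array 3, capillary array 2 or capillary array 3), while Cxcl9, Cxcl10 and Cxcl11, which interferon also induces, were higher as given above. Ifit2 was lower (-1.59, SE 0.27), as were Rsad2, viperin (-1.44, SE 0.20) and Oas2 (-1.29, SE 0.12). Of 10 measured genes of MHC class II presentation 1 was higher: Cd74, the invariant chain, at 1.44 (SE 0.22), with 0.15, -0.59 and 0.42 against -1.64, -1.50 and -1.20.

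Cell cycle genes were higher in 15 of 45 cases and lower in 2 (median 0.30). The higher count was 9 with HEC array 1 alone, and without any 1 array between 10 and 20; the lower count was 4 without HEC array 3. Cdk1, the mitotic kinase, read 0.51, 0.01 and 1.17 against -0.23, -0.65 and -0.82 and was higher by 1.13 (SE 0.25, limma adjusted p = 0.00313). Kif11, a spindle motor, was higher by 1.16 (SE 0.21) and Ccnd1, cyclin D1, by 1.34 (SE 0.13), while Ccnd2, cyclin D2, was lower (-1.29, SE 0.16). The list means in HEC were 0.27, 0.04 and 0.44, so this list too was lowest in HEC array 2 and highest in HEC array 3.

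Scavenger genes shared with lymphatic endothelium were higher in part. Lyve1, a hyaluronan receptor, read 3.77, 3.48 and 3.89 against 0.05, -0.21 and 0.17, a rise by 3.71 (SE 0.39). Stab2 and Colec12, both scavenger receptors, were higher by 2.31 (SE 0.16) and 2.57 (SE 0.15). The lymphatic genes Prox1, Pdpn and Flt4 did not go with them. Prox1, the lymphatic master factor, read 0.69, 0.09 and 0.91 in HEC and 1.24, 1.25 and 1.17 in capillary arrays (-0.66, SE 0.23, limma adjusted p = 0.0569), Pdpn was not called (0.05, SE 0.12) and Flt4, the VEGF receptor 3, was lower (-1.41, SE 0.14). Over the 6 lymphatic markers 2 were higher, Lyve1 and Reln, and 1 was lower. The higher count was 1 without HEC array 1, HEC array 2 or capillary array 1. There Reln was higher by 0.42 to 0.44 and not called (limma adjusted p = 0.066 to 0.0796). The lower count was 2 without HEC array 3. The list means of the 6 lymphatic markers ran from 0.71 to 0.98 in HEC and from 0.40 to 0.47 in capillary arrays.

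Markers of the intestinal epithelium moved between arrays rather than between groups. Of 24 measured, 2 were higher and 2 lower. The higher count was 1 without capillary array 1 and 7 without capillary array 3, and the lower count was 0 without HEC array 1, HEC array 3, capillary array 2 or capillary array 3. The list means were 0.91, 0.85 and 0.60 in HEC and 0.17, 0.71 and 1.12 in capillary arrays. Lyz1, the Paneth cell lysozyme, read 4.10 in HEC array 1 and 0.40 and 0.28 in the other HEC arrays, with capillary arrays at 0.28, 0.53 and 0.15. Fabp2, of enterocytes, read -0.07, 4.11 and 3.82 in capillary arrays and 0.75, 1.68 and 0.11 in HEC. Reg3g, an antimicrobial lectin, read 1.79, 2.53 and 2.54 in HEC and -0.10, 1.07 and 2.58 in capillary arrays. None of these 3 genes was called. Agr2, a goblet cell gene, was called higher (1.22, SE 0.28, limma adjusted p = 0.00423) although capillary array 2 at 1.96 overlapped with HEC arrays at 1.95 to 2.66, and with HEC array 1 alone it was not called (1.05, limma adjusted p = 0.105). The part of epithelial RNA in the results was not tested.

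**Figure D4:**
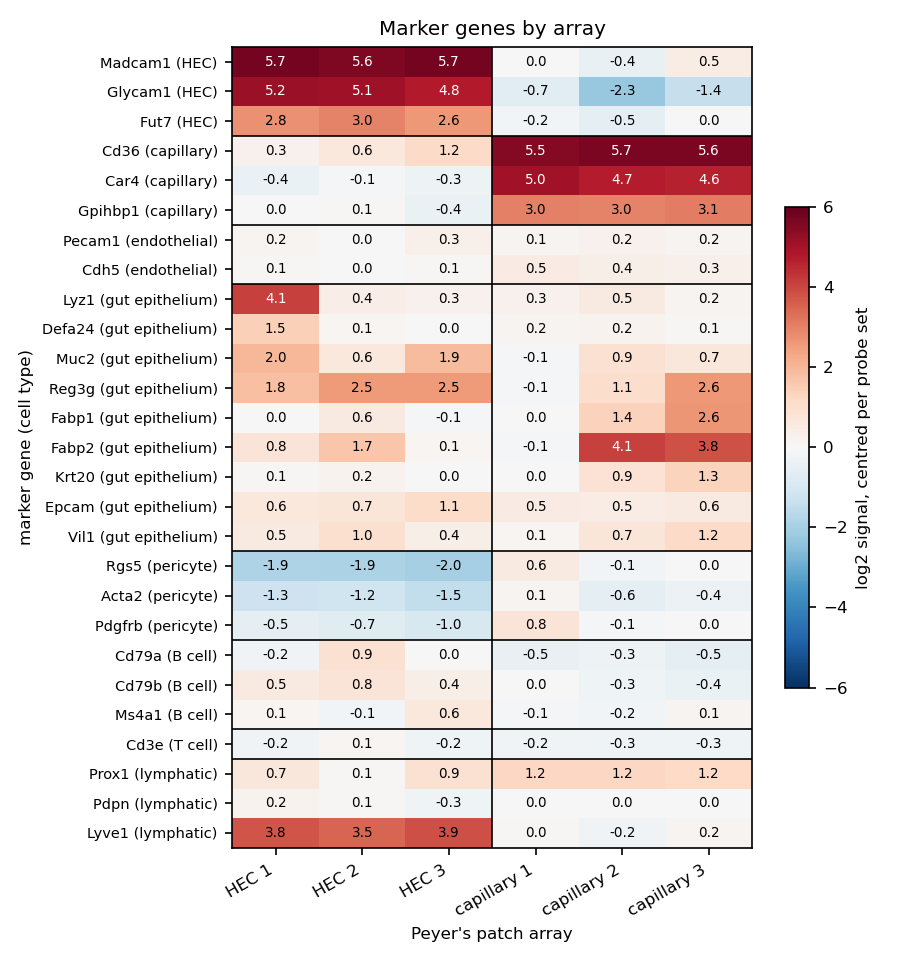
Centred log2 signal (number and colour) of marker genes (rows, cell type in parentheses) in the 6 Peyer's patch arrays (columns). HEC and capillary markers divide the arrays by group, while epithelial markers divide them by array: Lyz1 is 4.1 in HEC array 1 alone and Fabp2 is high in capillary arrays 2 and 3.

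Mural cell genes were more often lower than higher in HEC. Among 12 measured markers of pericytes and smooth muscle 6 were lower and 1 higher. The higher one was Tagln, a smooth muscle marker. When any 1 Peyer's patch array was left out it was higher by 0.95 to 1.15 and not called (limma adjusted p = 0.0539 to 0.148). With HEC array 1 alone 2 were lower, and without any 1 array 0 were higher. Rgs5, of pericytes, read -1.87, -1.91 and -2.02 against 0.56, -0.14 and 0.00, a difference of -2.07 (SE 0.24). Acta2, smooth muscle actin, was lower (-1.03, SE 0.23), and with HEC array 1 alone it was -0.98 and not called (limma adjusted p = 0.0822). List means ran from -0.72 to -0.46 in HEC and from -0.12 to 0.17 in capillary arrays, and their part in the fall of matrix and vasomotor genes was not tested. Of 10 fibroblast markers 0 were higher and 1 lower in limma, as at an unadjusted p under 0.05, and the lower count was 0 without HEC array 2 or capillary array 2.

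Some markers of blood cells were higher in HEC. Of 11 B cell markers 3 were higher, beside 8.90% of all genes, and 1 was without capillary array 3 or with HEC array 1 alone. Spib, an Ets factor, was higher by 0.97 (SE 0.12) in all 3 HEC arrays. Cd79b, a B cell receptor subunit, was higher by 0.79 (SE 0.21), but not called without HEC array 2 (0.67, limma adjusted p = 0.051) or without capillary array 3 (0.70, limma adjusted p = 0.0537) or with HEC array 1 alone (0.77, limma adjusted p = 0.116). Cd79a, its partner subunit, was higher by 0.68 (SE 0.22, limma adjusted p = 0.0373), a call lost without HEC array 2 (0.35, limma adjusted p = 0.193), without any 1 capillary array (0.62 to 0.75, limma adjusted p = 0.058 to 0.119) and with HEC array 1 alone (0.23, limma adjusted p = 0.582). Ms4a1, Cr2 and Pax5, which define B cells, were not called, with differences of 0.24, 0.02 and 0.12. Of 10 myeloid markers 2 were higher and 1 lower, with Cd14 at 1.50 (SE 0.17). Of 6 plasma cell markers 1 was higher and 1 lower, which were Xbp1 and Prdm1 as given above. In limma 0 of 9 T cell, 0 of 4 red cell and platelet and 0 of 6 glial and neuronal markers were called, and at an unadjusted p under 0.05 these counts were 0, 2 and 1. Without HEC array 2 the T cell list had 1 higher and the glial list 1 lower, and without HEC array 3 the glial list had 1 higher.

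The same difference was then set against that in lymph nodes. The question was where HEC differ from capillary cells to another extent in Peyer's patches, tested as the difference of differences in the same fit. Against peripheral nodes (4 HEC and 3 capillary arrays) 808 genes passed (4.05% of all), 336 more positive (1.69%) and 472 more negative (2.37%) in Peyer's patches. Of the 3881 genes called in Peyer's patches 561 (14.5%) were among them. The test contains the difference by which these genes were called. A share above that of all genes is thus partly built in, also for mesenteric nodes below. Without single arrays the counts moved. The total fell to 518 when HEC array 1 was left out and to 505 when capillary array 2 was, and was 2921 when HEC array 3 was left out and 357 with peripheral capillary array 3 alone; the more negative count was 306 and 314 when HEC arrays 1 and 2 were left out in turn and 313 without peripheral capillary array 2, and the more positive count was 198 without capillary array 2. Against mesenteric nodes (4 HEC and 2 capillary arrays) 150 genes passed (0.752%), 63 more positive (0.316%) and 87 more negative (0.436%), with 115 (2.96%) of the called genes among them. The mesenteric count was 79 with HEC array 1 alone, and the more negative count was 143 without HEC array 3 and 57 without capillary array 2. Without mesenteric capillary array 1 or 2, which leaves 1 array in that arm, it was 73 (30 more positive, 43 more negative) or 83 (39 more negative), and without mesenteric HEC array 2 the more negative count was 56. A total of 123 genes passed against both, and both tests use the same Peyer's patch arrays. Some lists described above held many genes that passed against peripheral nodes. Of 45 cell cycle genes 16 were more positive and 0 more negative, and of 12 pericyte and smooth muscle markers 5 and 0. Of 22 arterial genes 1 was more positive and 11 more negative. Against mesenteric nodes the arterial counts were 1 and 3, and those of the other 2 lists were 0 and 0.

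Of the 6 HEC markers 3 were more positive against peripheral nodes (Glycam1, Madcam1 and Ackr1) and 1, Chst4, was more negative. Of the 17 selectins and integrin ligands 2 were more positive and 1 more negative against peripheral nodes. Against mesenteric nodes 1 of these 17 was more positive and 0 more negative. Of the 26 sugar enzymes 2 passed against peripheral and 2 against mesenteric nodes, all more negative in Peyer's patches. The Glycam1 difference was 6.45 in Peyer's patches, 1.51 in peripheral and 5.27 in mesenteric nodes, and its excess over peripheral nodes was 4.93 (SE 0.69, limma adjusted p = 0.000348). The Glycam1 level of HEC was alike in the 3 tissues, at 4.78 to 5.18, 4.60 to 5.07 and 4.81 to 5.07, while the peripheral capillary arrays read 1.70, 4.11 and 4.42. With peripheral capillary array 3 alone the excess was 3.23. Madcam1 differed by 5.68, 2.93 and 6.23 in Peyer's patches, peripheral and mesenteric nodes, the order kept below, an excess over peripheral nodes of 2.75 (SE 0.31, limma adjusted p = 4.56e-05), which was 2.38 with peripheral capillary array 3 alone. Peripheral HEC read 1.73 to 2.55 and mesenteric HEC, which were gated on MAdCAM1, 5.34 to 5.62.

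Chst4 went the other way. Its difference of 2.14 in Peyer's patches stood against 4.85 in peripheral and 5.0 in mesenteric nodes, so the tests gave -2.71 (SE 0.50, limma adjusted p = 0.00392) and -2.86 (SE 0.53, limma adjusted p = 0.0135). HEC read 1.69 to 2.11 in Peyer's patches, 5.91 to 6.13 in peripheral and 3.90 to 5.67 in mesenteric nodes, where 2 arrays were gated on PNAd too, the antigen that CHST4 helps to make. With peripheral capillary array 3 alone the peripheral value was -4.06. The mesenteric value with HEC array 1 alone was -2.80 and not called (limma adjusted p = 0.124), as without mesenteric capillary array 1 (-2.71, limma adjusted p = 0.1) or 2 (-3.01, limma adjusted p = 0.0515). Gcnt1 and Fut7 were not called in either test, with adjusted p-values of limma from 0.193 to 0.955.

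Other genes differed between tissues in their HEC levels, their capillary levels or both. Fjx1 read 3.44 to 3.98 in HEC of Peyer's patches, 1.48 to 1.65 in those of mesenteric nodes and -0.15 to 0.07 in those of peripheral nodes. The capillary arrays lay between -0.46 and 0.19 in all tissues, so Fjx1 separated the HEC of the 3 tissues without overlap. Gucy1a1 was higher in Peyer's patch HEC (1.80), lower in peripheral HEC (-1.63) and near level in mesenteric HEC (-0.21) than in capillary cells of the same tissue. Cxcl9 differed by 2.59, -0.20 and 0.75. Its HEC levels overlapped between Peyer's patches (0.31 to 0.77) and peripheral nodes (0.39 to 0.58) and were -0.42 to 0.24 in mesenteric nodes. Its capillary levels were apart, with Peyer's patch capillary arrays at -2.15 to -2.0, the peripheral ones at 0.55 to 0.85 and the mesenteric ones at -1.01 to -0.68. Aplnr differed by 0.04 in Peyer's patches, -3.78 in peripheral and -2.23 in mesenteric nodes, with HEC at 1.75 to 2.27, -1.0 to -0.69 and 0.14 to 1.26.

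**Figure D5:**
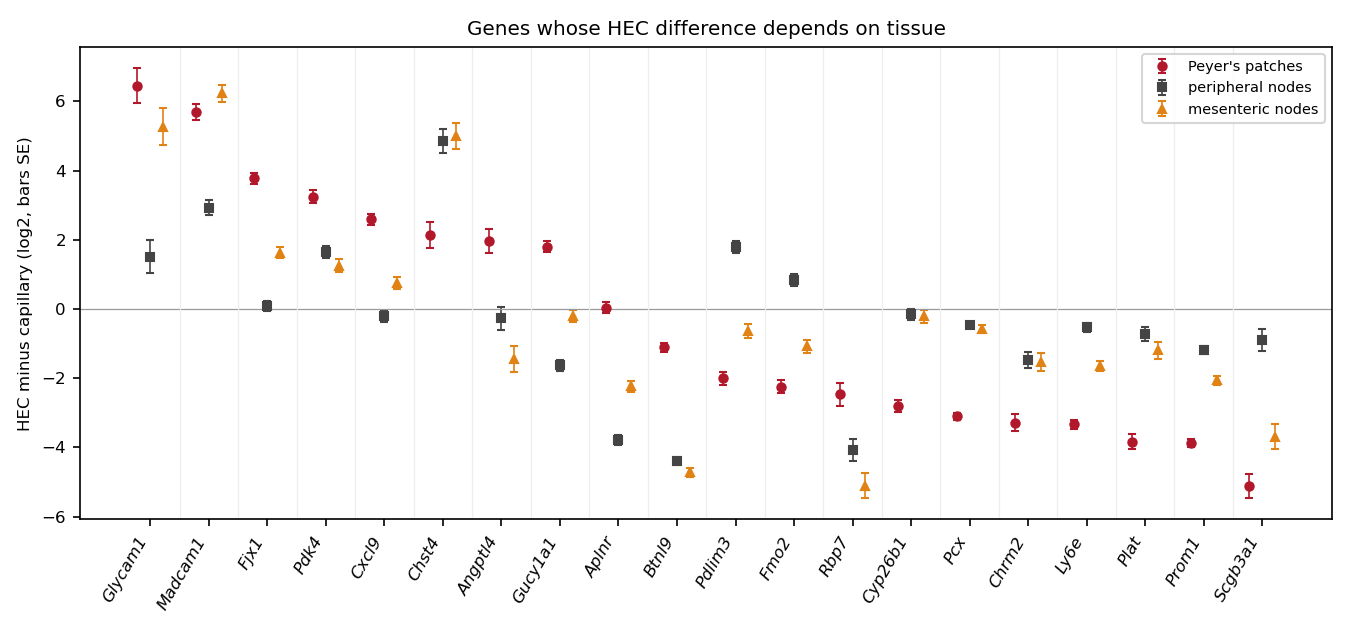
Difference between HEC and capillary cells (y axis, log2, bars SE) in Peyer's patches (circles), peripheral nodes (squares) and mesenteric nodes (triangles) for the genes named for their dependence on tissue (x axis). Chst4 is lowest in Peyer's patches (2.14), and Plat, Pcx, Cyp26b1 and Prom1 fall lower there than in either node.

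For several genes the difference between HEC and capillary cells was more negative in Peyer's patches than in either node, in both tests. Pcx, pyruvate carboxylase, read 2.44 to 2.69 in Peyer's patch capillary arrays and -0.05 to 0.25 in capillary arrays of both nodes, and its difference was -3.10 against -0.46 and -0.58. Cyp26b1 read 2.48 to 3.37 in Peyer's patch capillary arrays and -0.18 to 0.21 in the others, with differences of -2.80, -0.16 and -0.22. Prom1, the membrane protein prominin 1, differed by -3.87, -1.18 and -2.06, and Plat by -3.84, -0.72 and -1.20. Capillary arrays of Peyer's patches read 3.67 to 3.81 for Prom1 and 2.16 to 2.25 for Plat. Those of the nodes read 0.75 to 1.97 and -0.25 to 0.68. HEC of Prom1 overlapped between tissues, while HEC of Plat read -2.20 to -1.34 in Peyer's patches and -1.25 to -0.27 in the nodes. Chrm2, a muscarinic receptor, differed by -3.28, -1.48 and -1.52. Its capillary arrays read 3.00 to 3.93 in Peyer's patches and 0.62 to 1.81 in the nodes. Its test against mesenteric nodes (-1.76, limma adjusted p = 0.0274) was lost without HEC array 1 (adjusted p = 0.0574), HEC array 3 (adjusted p = 0.0521) or capillary array 2 (adjusted p = 0.0682), without any 1 of the 4 mesenteric HEC arrays (-1.72 to -1.79, limma adjusted p = 0.0523 to 0.0603) and without mesenteric capillary array 2 (-1.16, limma adjusted p = 0.205). With HEC array 1 alone it was -1.64 (limma adjusted p = 0.19), and with only the compared arrays in the fit the adjusted p was 0.124.

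Ly6e, a membrane protein of the Ly6 family, was instead low in Peyer's patch HEC, at -3.86 to -3.42, where mesenteric HEC read -1.86 to -0.97 and peripheral HEC -0.34 to -0.26. Its differences were -3.33 in Peyer's patches, -0.53 in peripheral and -1.65 in mesenteric nodes. Pdlim3, an actin-associated protein, and Fmo2, a monooxygenase, were lower in Peyer's patch HEC than in capillary cells (-2.0 and -2.24) and higher in peripheral HEC (1.79 and 0.84). Btnl9, a butyrophilin-like gene of capillaries, differed by -1.11 in Peyer's patches and by -4.39 and -4.71 in the nodes, where capillary arrays read 4.04 to 4.76 against 0.84 to 1.19 in Peyer's patches. Rbp7, a retinol carrier of capillaries, differed by -2.46, -4.07 and -5.10. Its test against mesenteric nodes (2.64) was lost with HEC array 1 alone (2.69, limma adjusted p = 0.111) and without mesenteric capillary array 1 (2.09, limma adjusted p = 0.147). Pdk4, which restrains pyruvate dehydrogenase, was higher by 3.25, 1.64 and 1.25, and Angptl4 by 1.96 in Peyer's patches with -0.27 and -1.45 in the nodes. Scgb3a1, a secretoglobin, differed by -5.11, -0.89 and -3.69. Its level in capillary arrays was 4.40 to 4.78 in Peyer's patches, 3.77 to 3.90 in mesenteric and -0.21 to 1.61 in peripheral nodes. With peripheral capillary array 3 alone its excess over peripheral nodes of -4.22 was -3.35.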

How the data were processed

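RNA of sorted endothelial cells was hybridised to 19 Affymetrix arrays. The deposited log2 values were made by the authors with RMA and Partek (versions not given), per the submitters' processing notes. The values of each probe set are centred on a baseline that is not given in the sources used here, so they hold differences and no absolute level. Their precision is limited by the number of arrays.

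Probe sets with 1 gene symbol in the platform annotation were kept (21789 of 28856), and 999 genes with several probe sets were averaged to give 19938 genes. limma 3.58.1 (R 4.3.3) was fitted with 7 group means on all 19 arrays (12 residual degrees of freedom), and p-values were adjusted by Benjamini-Hochberg with a threshold of 0.05. The mesenteric HEC value is the mean of both gates. The script was tested on simulated data. Figures were drawn with matplotlib 3.10.9.

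Both groups and all 50 gene lists (927 of 985 genes measured) were chosen with earlier results of these data known. Genes named are the 15 highest and 15 lowest at least 2-fold without overlap, up to 6 called members of each list, and a fixed set. The 8 with the widest range among arrays of a group were also taken. Each test against lymph nodes added its 6 most positive and 6 most negative genes. These came only from genes called, at least 2-fold different and without overlap in Peyer's patches. Genes that differ more from a node can thus be missing. Some members of small counts are also named, after their values were seen, as were the promoter motifs. Other members of small counts are not named. The ranked names leave out predicted genes, olfactory and vomeronasal receptors, antigen receptor segments and small RNAs. Alternatives were the arrays in the fit, a replicate block, leaving out arrays (those of lymph nodes chosen after seeing the data), normalization, centring, weights, probe set choice, a filter and a robust prior.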

Additional observations from a re-analysis of the deposited data

Results flagged for a closer look

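The difference between HEC and capillary cells was itself tested against that of lymph nodes, and the named genes below passed (limma, adjusted p under 0.05). They were taken only from genes that were also called, at least 2-fold different and without overlap in Peyer's patches. All values are log2 and all tests share the Peyer's patch arrays. Against peripheral nodes the difference in Peyer's patches was more positive for Glycam1 by 4.93, Fjx1 by 3.69, Gucy1a1 by 3.43, Btnl9 by 3.28, Cxcl9 by 2.79 and Madcam1 by 2.75. It was more negative for Scgb3a1 (-4.22), Pdlim3 (-3.79), Plat (-3.12), Fmo2 (-3.08), Ly6e (-2.80) and Chst4 (-2.71). With peripheral capillary array 3 alone, an arm of 1 array chosen after seeing the data, the values in the same order were 3.23, 3.82, 3.19, 3.55, 2.62 and 2.38, and -3.35, -4.03, -3.0, -3.16, -2.91 and -4.06.

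Against mesenteric nodes the difference was more positive for Btnl9 by 3.60, Angptl4 by 3.41, Rbp7 by 2.64, Fjx1 by 2.14, Gucy1a1 by 2.01 and Pdk4 by 2.00. It was more negative for Chst4 (-2.86), Plat (-2.64), Cyp26b1 (-2.58), Pcx (-2.52), Prom1 (-1.81) and Chrm2 (-1.76). With HEC array 1 alone the differences were 2.69 for Rbp7, -2.80 for Chst4 and -1.64 for Chrm2, and these 3 did not pass (limma adjusted p = 0.111, 0.124 and 0.19). Rbp7 did not pass without mesenteric capillary array 1 (2.09, limma adjusted p = 0.147), nor Chst4 without mesenteric capillary array 1 (-2.71, limma adjusted p = 0.1) or 2 (-3.01, limma adjusted p = 0.0515). Where 1 array is left in an arm, that arm adds nothing to the pooled spread, which then comes from the other groups.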

How the results depend on the processing

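The widest moves in the counts of called genes came with limma's array quality weights, which could not be estimated stably (weights 41.584, 0.214 and 0.182 for HEC arrays 1 to 3). They gave 10439 genes between HEC and capillary cells (5927 higher, 4512 lower), 6443 against peripheral nodes (3642 more positive, 2801 more negative) and 1703 against mesenteric nodes (853 and 850). With HEC array 1 alone, chosen after seeing the data, 1064 genes were higher, and 79 passed against mesenteric nodes (33 and 46). With peripheral capillary array 3 alone, also chosen after seeing the data, 357 passed against peripheral nodes (122 and 235). In these fits an arm of 1 array adds nothing to the pooled spread, which then comes from the other groups. Leaving out 1 Peyer's patch array at a time gave 2943 to 4441 genes between HEC and capillary cells. Leaving out 1 Peyer's patch or node array at a time, the node arrays chosen after seeing the data, gave 505 to 2921 against peripheral nodes (198 to 1535 more positive, 306 to 1386 more negative) and 73 to 220 against mesenteric nodes (30 to 77 and 39 to 143). A fit on only the arrays compared called 2851, 623 and 108 genes. Arrays with the same number did not pair: deviations correlated at -0.11, 0.065 and -0.397 across genes. Between arrays of different numbers the values ran from -0.368 (HEC array 2 with capillary array 1) to 0.396 (HEC array 3 with capillary array 1). HEC array 2 with capillary array 3 gave 0.36. A pairing under other numbers was not tested. With the replicate number as a block 3854, 735 and 110 genes were called. Of 240 named genes that were called, 22 lost the call without some 1 Peyer's patch array, 29 with HEC array 1 alone, 13 with only the compared arrays in the fit and 2 with the block. Itih5 turned from -0.72 to 0.58 under quantile normalization, and the cause was not tested. The number of arrays limits the precision, and signal over background cannot be judged on centred values.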
